A study of Macaca mulatta with 2 samples.

Results

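Macrophages of the aqueous outflow tissue were picked out of single-cell RNA libraries of rhesus macaque trabecular meshwork (TM), the sieve-like tissue through which aqueous humour leaves the eye. Cell barcodes were chosen by their measured transcripts: a barcode counted as a macrophage when it held at least 1 unique molecular identifier (UMI, a tag for 1 captured RNA molecule) of at least 3 of the genes CD14, C1QB, C1QC, CD163, CSF1R, AIF1 and MRC1. It also had to hold 0 UMIs of CD3D and CD3E (T cells), CDH19 (Schwann cells) and PECAM1 (endothelium, but also many macrophages). Only barcodes with 500 or more detected genes and a mitochondrial share of UMIs under 20% entered. The rule gave 596 macrophages among 14063 kept barcodes, out of 17652 deposited barcodes.

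The series compared spontaneously glaucomatous monkeys with healthy ones, to find the cell types and genes of the outflow path that differ. The glaucoma library carries the genotype label glaucoma and gave 471 macrophages. The normal library carries the label normal and gave 125. Both were made from TM digested with 5 mg of collagenase at 37 °C for 20 minutes, passed through a 70 µm filter and loaded for a target of 10000 cells on a droplet kit that reads the 3′ ends of transcripts. How many animals or eyes went into each library, and their age, sex and eye pressure, were not stated in the labels, so each group is 1 library and differences between them have no replicate check. Intervals in square brackets are exact 95% intervals of the counting error alone, and cells are not replicates.

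Macrophages are phagocytes that take up debris and dying cells, digest them in lysosomes, and present peptides on MHC class II molecules. In tissues they are a mix of long-lived resident cells, marked in many organs by LYVE1 and FOLR2, and cells that arrive from the blood as monocytes, marked by S100A8, S100A9 and CCR2. In the outflow path they lie among the meshwork beams and along Schlemm's canal, where they are known to clear pigment and cell debris.

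Macrophages made up 5.46% [4.99, 5.96] of kept glaucoma barcodes (471 of 8633) and 2.30% [1.92, 2.74] of kept normal barcodes (125 of 5430). The share was thus higher in the glaucoma library by a log2 ratio of 1.24 [0.96, 1.54], and the 2 intervals did not overlap. Depth per macrophage was close in both. The glaucoma macrophages held 1932968 UMIs together, with a median of 3927 UMIs, 1319 genes and a mitochondrial share of 4.14% per cell, and the normal macrophages 574233 UMIs, with a median of 4290 UMIs, 1383 genes and 3.78%. Other kept barcodes had median depths of 2726.5 UMIs in glaucoma and 2670 UMIs in normal. The 2 libraries shared 17 barcode sequences, 11 of them kept in both, and none of these was a macrophage.

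The rule left out 161 glaucoma and 33 normal barcodes that had at least 3 of the marker genes but also a UMI of an excluded gene. For 136 of the glaucoma and 29 of the normal barcodes that gene was PECAM1 alone. These PECAM1 barcodes looked like the macrophages in C1QC (3119 CPM in glaucoma and 2991 CPM in normal, where CPM is UMIs per 1000000 UMIs of the cells summed). In the glaucoma library they also held endothelial transcripts, with CDH5 at 62.1 CPM against 5.84 CPM in the normal library, and EGFL7 at 412 CPM against 35.1 CPM. In the macrophages themselves CDH5 stood at 2.07 CPM in glaucoma and 1.74 CPM in normal. With PECAM1 allowed, the shares would be 7.03% and 2.84%.

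The 7 genes of the rule are given as a description, since they chose the cells. CD14, a co-receptor for bacterial lipopolysaccharide, stood at 4653 CPM in glaucoma macrophages and 4077 CPM in normal macrophages. C1QC, a chain of the first complement component, stood at 3783 and 3647 CPM, and the calcium-binding protein gene AIF1 at 1760 and 1788 CPM. For each of these 3 genes between 92.8% and 97.9% of macrophages in either library held a UMI. C1QB was detected in 48.0% of macrophages in both libraries. The remaining 3 genes were detected less often in glaucoma macrophages: the haemoglobin scavenger receptor gene CD163 in 40.3% against 66.4%, the mannose receptor gene MRC1 in 32.7% against 60.0%, and CSF1R, the receptor for the macrophage growth factor CSF1, in 22.5% against 41.6%. With each cell thinned to 1000 UMIs the shares were 15.9% and 32.0% for CD163, 14.2% and 27.0% for MRC1, and 7.33% and 20.5% for CSF1R. Accordingly, glaucoma macrophages carried fewer of the 7 genes: 27.2% held just 3 of them and 2.55% held all 7, against 12.8% and 12.0% of normal macrophages.

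At the edge of the rule, the 128 glaucoma and 16 normal barcodes with just 3 markers had C1QC at 1489 and 2756 CPM and CD14 at 3057 and 3265 CPM. The 53 glaucoma and 8 normal barcodes with just 2 markers, which were left out, had C1QC at 166 and 172 CPM and CD14 at 937 and 515 CPM. A further 40 glaucoma and 31 normal barcodes met the marker rule but failed the filter on genes or mitochondrial share.

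**Figure D1:**
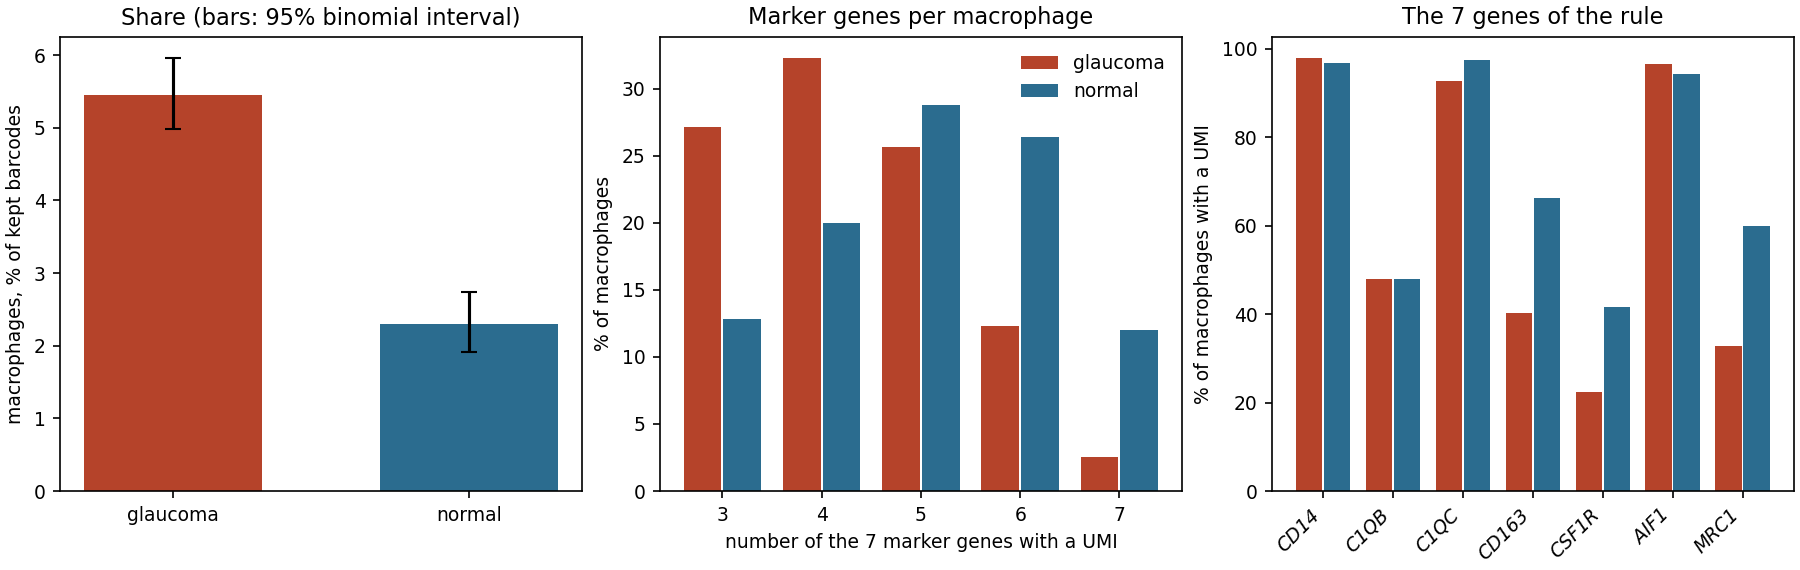
Share of macrophages among kept barcodes with its 95% binomial interval (left), the number of the 7 marker genes with a UMI in each macrophage (middle) and the share of macrophages with a UMI of each marker gene (right), for the glaucoma library (red) and the normal library (blue). The share was 5.46% in glaucoma and 2.30% in normal, and the genes CD163, CSF1R and MRC1 were detected in fewer glaucoma than normal macrophages.

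Beyond the rule, the macrophages shared a broad set of phagocyte genes. Of 4719 genes with at least 50 UMIs in macrophages over both libraries, leaving out the 11 genes of the rule, 378 (8.01%) were at least 4-fold higher in macrophages than in all other kept barcodes in both libraries, with intervals that exclude 0. Highest by this measure, among named genes with at least 100 UMIs, was FOLR2, the gene of a folate receptor of tissue macrophages, at 317 CPM in glaucoma and 397 CPM in normal macrophages, against 8.37 and 3.13 CPM in the other barcodes of the same libraries. C5AR1, the receptor for the complement fragment C5a, stood at 539 and 667 CPM against 14.4 and 8.93 CPM in other barcodes. The scavenger receptor gene MSR1 stood at 294 and 340 CPM, against 8.17 and 3.74 CPM. The smallest of these 6 ratios was that of MSR1 in the glaucoma library, at 5.17 on the log2 scale.

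The other 17 of the 20 named genes highest over other cells held receptors for chemokines (CCR1), platelet-activating factor (PTAFR), lipids and debris (TREM2, OLR1, MARCO), microbial sugars and glycolipids (CLEC4E, CLEC6A) and lysophospholipids (GPR34). They also held the co-stimulatory molecule CD86, CYBB, the catalytic subunit of the phagocyte oxidase, HPGDS, which makes prostaglandin D, the eosinophil-attracting chemokine CCL24, the membrane proteins MS4A7, MS4A4A and CD72, the nuclease DNASE2B, and C1orf162. Each of the 20 was at least 4.87 on the log2 scale above other barcodes in both libraries. None of them differed 2-fold between the glaucoma and the normal macrophages: their log2 ratios, glaucoma over normal, ran from -0.62 for CLEC4E to 0.80 for TREM2.

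**Figure D2:**
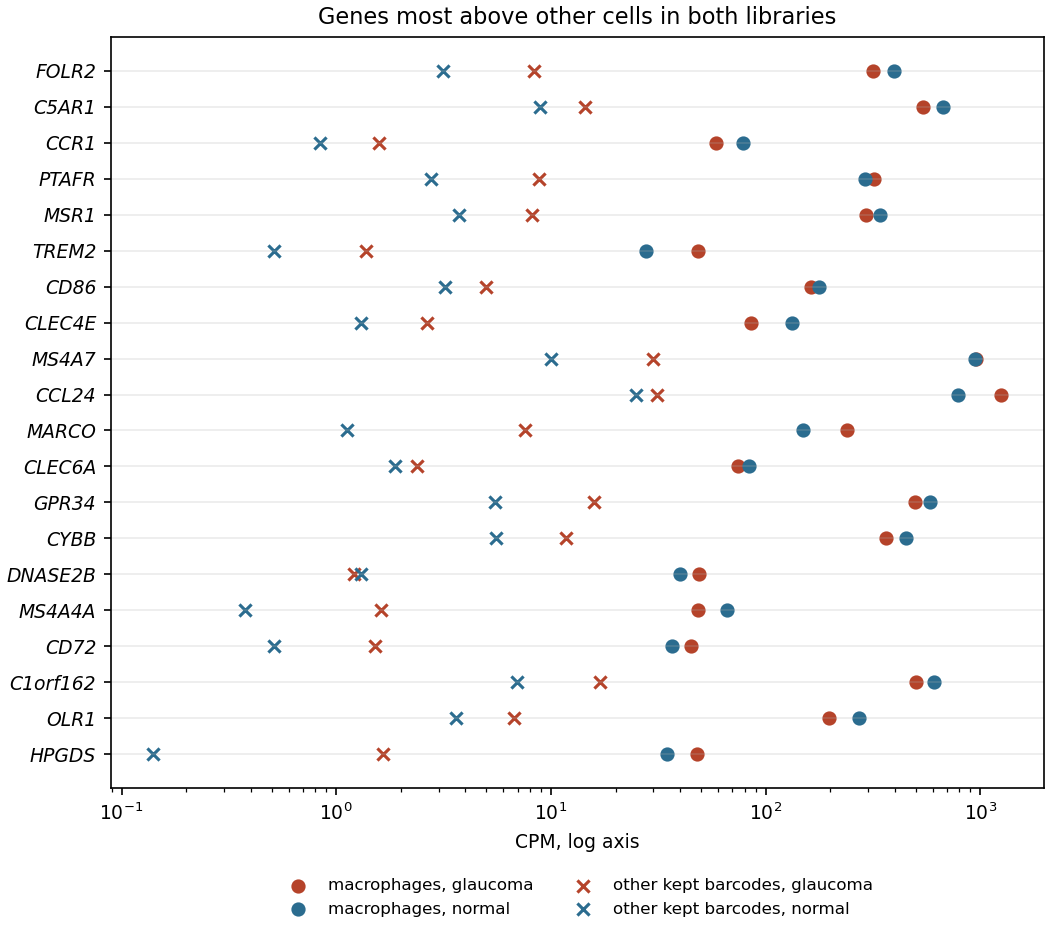
CPM (log axis) of the 20 named genes that stood most above other cells in both libraries, in macrophages (circles) and in all other kept barcodes (crosses), for the glaucoma library (red) and the normal library (blue). For FOLR2 the macrophages had 317 and 397 CPM and the other barcodes 8.37 and 3.13 CPM.

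Between the libraries, 169 of the 4719 genes (3.58%) were at least 2-fold higher in glaucoma macrophages and 331 (7.01%) at least 2-fold lower, with counting intervals that exclude 0. This balance turned at equal depth, where each cell was thinned to 1000 UMIs and 69 genes were higher and 57 lower of 1227, and at 3-fold, where 43 were higher and 40 lower. The median log2 ratio over all genes tested was -0.06. Among the 378 macrophage-enriched genes, 17 (4.50%) were higher and 20 (5.29%) lower in glaucoma, with a median of 0.01, so their shares lay close to those of all genes. The ratios that follow are those of 1 library over 1 other, and every gene named from these 37 was chosen after its value was seen. Beside many of them stands the same ratio in the kept barcodes with none of the 7 marker genes, which shows how far the other cells of the same 2 libraries differed too.

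Among the enriched genes lower in glaucoma, the most abundant was CCL4L1, a gene of the CCL4 chemokine family that draws monocytes and T cells, at 1611 CPM in glaucoma and 3284 CPM in normal macrophages. Its log2 ratio was -1.03 [-1.11, -0.94], against 1.27 in barcodes with none of the markers. T and NK lymphocytes also held it, at 1256 CPM in glaucoma and 1214 CPM in normal. Without its top barcode in each library the macrophage ratio was -0.89, short of 2-fold, and over the alternatives it reached -0.52. A UMI of CCL4L1 was found in 42.7% of glaucoma and 38.4% of normal macrophages. Members of this chemokine family share much of their sequence, and CCL4 itself has no named feature, so the counting of this gene is uncertain. Carboxypeptidase M, a surface enzyme that marks maturing macrophages and whose gene symbol happens to be CPM, stood at 217 CPM units in glaucoma and 684 in normal, a log2 ratio of -1.66 [-1.86, -1.45], and its ratio in the marker-free barcodes was -0.26. Under every alternative run, 16 in all, its ratio stayed between -1.97 and -1.47. Those that changed only the UMI minimum could not move it.

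Several surface receptors of myeloid cells were also lower in glaucoma. CLEC5A, a lectin receptor that triggers inflammatory signalling, stood at 10.3 CPM in glaucoma and 55.7 CPM in normal, a log2 ratio of -2.43 [-3.31, -1.58]. The formyl peptide receptor gene FPR1 stood at 21.2 CPM against 61.0 CPM (-1.52), TREM1, an amplifier of inflammatory signals, at 27.9 against 61.0 CPM (-1.13), and CD163L1, a scavenger receptor related to CD163, at 30.5 against 76.6 CPM (-1.33). TIMD4, a receptor for phosphatidylserine on dying cells, stood at 16.0 and 45.3 CPM (-1.50). These 5 genes were rare in both libraries, each with under 110 UMIs in all macrophages together, and their ratios rest on few molecules. The ratio of TREM1 was -0.99 without its top barcode in each library, short of 2-fold.

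The remaining lower genes were the class II gene MAMU-DQA1, FLT3, CXCL1, the hexokinase gene HK2, the glutamate transporter gene SLC1A3, the sodium-calcium exchanger gene SLC8A1, the dopamine receptor gene DRD1, the phosphatase genes PTPRE and SSH2, the deubiquitinase gene OTUD1, PSTPIP2, TM6SF1 and the lipoprotein receptor gene APOBR. For SSH2, PSTPIP2, OTUD1, DRD1 and SLC8A1 the marker-free barcodes of the glaucoma library were lower as well, by log2 ratios between -0.81 and -1.86. HK2 and SLC1A3 were lower there too, at -0.70 [-1.02, -0.38] and -0.48 [-0.93, -0.03]. For PTPRE the ratio in those barcodes was 0.08, against -1.18 [-1.60, -0.76] in macrophages. Without the top barcode in each library some macrophage ratios fell short of 2-fold: -0.97 for APOBR, -0.97 for SLC8A1, -0.92 for DRD1 and -0.99 for FLT3.

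Of the 17 enriched genes higher in glaucoma, 3 carry no gene name. CALHM6, a channel subunit made by activated macrophages, stood at 151 CPM in glaucoma and 47.0 CPM in normal macrophages, a log2 ratio of 1.68 [1.11, 2.31], and was detected in 38.4% and 14.4% of them. After thinning to 1000 UMIs these shares were 15.3% [12.1, 18.9] and 4.92% [1.83, 10.4], against 1.32% and 2.13% of T and NK lymphocytes. In the marker-free barcodes the ratio was 0.17 [-0.58, 0.93]. PYCARD, the adaptor protein ASC that joins inflammasome sensors to caspase 1, stood at 281 CPM against 125 CPM, a log2 ratio of 1.17 [0.81, 1.54], against 0.60 in the marker-free barcodes. CAMP, the precursor of the antimicrobial peptide cathelicidin, stood at 125 CPM against 48.8 CPM, a log2 ratio of 1.35 [0.79, 1.97]. Its 28 normal UMIs lay in 13 macrophages. Among macrophages with at least 4 marker genes the CAMP ratio was 0.83, short of 2-fold. Its thinned shares of cells, 6.90% [4.76, 9.60] and 4.10% [1.34, 9.31], had intervals that overlapped. For CALHM6, PYCARD and CAMP the top barcode held at most 3.32% of the UMIs in glaucoma and at most 14.8% in normal.

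BCL2A1, a survival protein induced by inflammatory signals, stood at 324 CPM in glaucoma and 158 CPM in normal macrophages (1.03 [0.71, 1.36]), and in the marker-free barcodes its ratio was 1.42. The other named genes of this set were CDC20, BIRC5 and CCNB2, which act in cell division, the class II genes MAMU-DPB and MAMU-DRB1, the histamine receptor gene HRH2, the growth factor gene AREG, METRNL, CCDC88B and RASL10A. In the marker-free barcodes RASL10A stood at 1.97, METRNL at 1.11 and CCDC88B at 0.26, and HRH2 and AREG at -2.45 and -1.13. CDC20 had 5 UMIs in normal macrophages, all in 1 barcode. BIRC5 and CCNB2 had 5 and 6 there, with 40% and 50% in 1 barcode. AREG stood at 52.8 CPM against 24.4 CPM (1.11), but over 14 UMIs in the normal library, and its ratio was -0.42 when no gene was excluded by the rule.

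**Figure D3:**
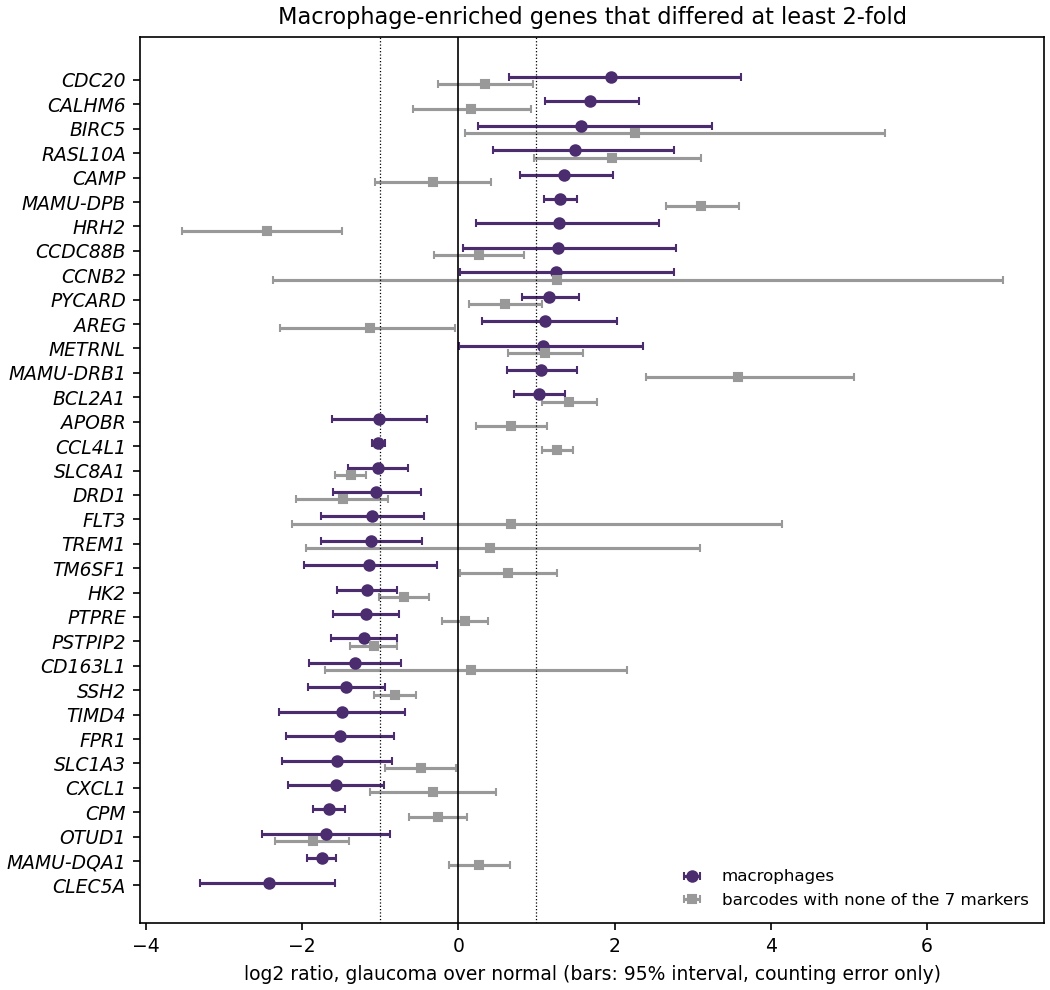
Log2 ratio, glaucoma over normal, of the 34 named macrophage-enriched genes that differed at least 2-fold between the libraries, in macrophages (dark circles) and in kept barcodes with none of the 7 marker genes (grey squares, not drawn where a library had 0 UMIs). Bars are 95% intervals for counting error, and dotted lines mark 2-fold. CALHM6 stood at 1.68 in macrophages and 0.17 in the marker-free barcodes, while MAMU-DPB stood at 1.30 and 3.11.

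Over all named genes called with at least 100 UMIs, the 15 highest ratios included several genes of other cells. HBB, a globin gene of red blood cells, had the highest ratio, with 275 UMIs in glaucoma and 6 in normal macrophages (3.77 [2.63, 5.23]), and 65.5% of the glaucoma UMIs came from 1 barcode. GPHA2, a glycoprotein hormone subunit, had 123 UMIs in glaucoma and 8 in normal macrophages, with 61.0% of the glaucoma UMIs in 1 barcode. S100A8 had 119 UMIs in 4 glaucoma macrophages and 8 UMIs in 1 normal macrophage. The ratios of GPHA2 and S100A8 therefore rest on a few barcodes each, and that of GPHA2 was 0.75 without the barcodes that Scrublet called doublets, short of 2-fold. HBB had UMIs in 80 glaucoma and 6 normal macrophages, its ratio was 2.50 without its top barcode in each library, and it stood at 1.28 in the marker-free barcodes.

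Genes with many carrying cells were also among the 15 highest. GPX4, the enzyme that removes lipid peroxides from membranes, stood at 247 CPM in glaucoma and 78.4 CPM in normal macrophages, a log2 ratio of 1.65 [1.21, 2.13], and was detected in 59.7% and 28.0% of them, or 21.1% [17.5, 25.1] and 9.84% [5.19, 16.6] after thinning. SQLE, an enzyme of cholesterol synthesis, stood at 159 and 48.8 CPM (1.71), RAMP1, a partner of the receptor for the sensory neuropeptide CGRP, at 100 and 27.9 CPM (1.85), and the chromatin remodelling subunit SMARCB1 at 77.6 and 22.6 CPM (1.78). Their ratios in the marker-free barcodes were 1.57 for GPX4, 1.34 for SQLE, 1.05 for RAMP1 and 0.78 for SMARCB1, so the other cells of the glaucoma library stood higher as well. Also among the 15, though not all in many cells, were PLAAT4, LPL, SAMD1, CRYAB, CALHM6, IFI27 and ADPRHL2. PLAAT4 was found in 4.67% of glaucoma and 4% of normal macrophages, with 54.5% of its normal UMIs in 1 barcode. It stood at 109 CPM in glaucoma and 19.2 CPM in normal macrophages, against 489 and 360 CPM in T and NK lymphocytes.

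The lowest ratio was that of 1 feature named RPS2, a ribosomal protein gene, with 8 UMIs in glaucoma and 245 in normal macrophages (-6.69). The annotation holds 2 features of this name, and the other held more UMIs in both libraries, 3541 and 680. The ratio of -6.69 is therefore that of the smaller feature and does not describe RPS2 as a whole gene. In the marker-free barcodes the same feature stood at -6.48, so macrophages and other cells showed this difference alike. CXCL2, CCL26, TIMP3, KRT19, CPXM2, RND3, DOP1B and MAMU-DQA1 were also among the 15 lowest, but CXCL2 and CCL26 had 63.3% and 77.1% of their normal UMIs in 1 barcode. With the tenth of macrophages holding most RNA of other cell types left out, the ratios became 3.32 for CXCL2, 0.082 for CCL26 and 1.69 for KRT19.

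The other lowest ratios were those of KLF6, KLF10, RUNX1, TET2, ABCA1 and MERTK. KLF6, a transcription factor gene that responds early to stimulation, stood at 218 CPM in glaucoma and 907 CPM in normal macrophages, a log2 ratio of -2.06 [-2.24, -1.87], and was detected in 46.3% and 76.0% of them. After thinning each cell to 1000 UMIs these shares were 15.3% [12.1, 18.9] and 44.3% [35.3, 53.5], and in T and NK lymphocytes, which also use the gene, 15.8% and 31.9%. KLF10, an early target of TGF-beta signalling, stood at 30.5 and 158 CPM (-2.38), RUNX1, a transcription factor of blood lineages, at 41.4 and 157 CPM (-1.92), and TET2, an enzyme that oxidises methylated DNA, at 38.3 and 122 CPM (-1.67). The marker-free barcodes had ratios of -0.62 for KLF6, -1.10 for KLF10, -1.32 for RUNX1 and -0.84 for TET2. ABCA1, the cholesterol exporter, stood at 29.0 and 94.0 CPM (-1.70), against -1.16 in those barcodes.

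MERTK is a receptor through which macrophages take up dying cells. It stood at 31.6 CPM in glaucoma and 143 CPM in normal macrophages, a log2 ratio of -2.18 [-2.68, -1.68], while the ratio in the marker-free barcodes was 0.01. The difference between these 2 ratios was not tested. A UMI of MERTK was found in 11.0% of glaucoma and 36.0% of normal macrophages. After each cell was thinned to 1000 UMIs the shares were 4.74% [2.99, 7.09] of 464 glaucoma macrophages and 13.9% [8.33, 21.4] of 122 normal ones, with 7 and 3 shallower macrophages left out. In T and NK lymphocytes, which should lack the gene, the thinned shares were 0.329% and 0%, at median depths of 1383 and 1771 UMIs.

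Gene lists were read by counts and medians, which stand beside 3.58% higher, 7.01% lower and a median of -0.06 over all genes. Of 16 phagocytic and scavenger receptor genes tested, 0 were at least 2-fold higher and 2 lower in glaucoma, MERTK and TIMD4, with a median of -0.32, counts close to the shares over all genes. TYROBP, the signalling adaptor of TREM2 and other receptors, stood at 682 CPM in glaucoma and 367 CPM in normal macrophages (0.89 [0.68, 1.11]). The low-affinity antibody receptor gene FCGR2A stood at 310 and 486 CPM (-0.65), and the high-affinity receptor gene FCGR1A at 310 and 235 CPM (0.40). MARCO, a scavenger receptor for particles and bacteria, stood at 239 and 150 CPM (0.67 [0.34, 1.02]), and its thinned share of cells was 19.2% [15.7, 23.1] against 9.84% [5.19, 16.6].

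Of 30 lysosome genes tested, 0 were higher and 1 was lower, GPNMB, a glycoprotein of lysosomes and melanosomes, at 135 CPM in glaucoma and 322 CPM in normal macrophages (-1.25 [-1.53, -0.97]). The list median was 0.05. The proteases CTSB (1655 and 2114 CPM), CTSS (753 and 759 CPM) and CTSD (325 and 324 CPM) differed by at most 0.35 on the log2 scale. CST3, the secreted protease inhibitor cystatin C, stood at 14964 and 9843 CPM, a log2 ratio of 0.60, against 0.74 in the marker-free barcodes.

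Of 11 complement genes tested, 0 were higher and 2 lower, C3, the central component, at 35.7 CPM in glaucoma and 97.5 CPM in normal (-1.45 [-1.98, -0.91]), and CD55, which protects cells from complement, at 16.6 and 34.8 CPM (-1.07). The list median was -0.43. C3 was also lower in the marker-free barcodes, at -1.96. The anaphylatoxin receptor genes C3AR1 (440 and 592 CPM) and C5AR1 had ratios of -0.43 and -0.31, while CFD, the protease that starts the alternative pathway, stood at 1276 and 1020 CPM (0.32).

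Antigen presentation genes were strong in both libraries. Of 13 MHC class II genes tested, 12 were macrophage-enriched, 2 were higher in glaucoma and 1 was lower, with a median of 0.01. MAMU-DRA stood at 6148 CPM in glaucoma and 6093 CPM in normal macrophages (0.01 [-0.04, 0.07]), and the peptide-loading gene MAMU-DMA at 1691 and 1625 CPM. MAMU-DPB was higher, at 911 and 369 CPM (1.30 [1.10, 1.52]), as was MAMU-DRB1, at 177 and 85.3 CPM (1.05), while MAMU-DQA1 was lower, at 247 and 831 CPM (-1.75 [-1.93, -1.56]). In the marker-free barcodes the ratios were 3.11 for MAMU-DPB, 3.58 for MAMU-DRB1, over 6 UMIs in normal, and 0.27 for MAMU-DQA1. These genes vary between animals and resemble each other, so reads of 1 allele can be lost or be counted under another gene. A second feature, named HLA-DQA1, stood at 835 and 535 CPM (0.64), and the sum of both DQA1 features was 1082 and 1365 CPM, a log2 ratio of -0.34 [-0.45, -0.21].

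Genes of inflammatory signalling showed no common direction. Of 13 cytokine and NF-kB target genes tested, 0 were higher and 2 lower: NFKBIA, the inhibitor that NF-kB induces, at 567 CPM in glaucoma and 1181 CPM in normal (-1.06), and NFKBIZ at 131 and 347 CPM (-1.40 [-1.67, -1.12]). The list median was -0.28, but it was 0.10 when cells were given equal weight. IL1B stood at 382 and 347 CPM (0.14 [-0.09, 0.37]), with 47.2% of its normal UMIs in 1 barcode, and IL1RN, the natural blocker of IL-1 receptors, at 123 and 62.7 CPM (0.97 [0.46, 1.52]).

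Of 12 chemokine and chemokine receptor genes, 0 were higher and 3 lower, CXCL2, CXCL1 and CCL4L1, with a median of -0.27. CXCL1 had 21.6% of its glaucoma UMIs and 33.3% of its normal UMIs in 1 barcode. CCL24, an attractant of eosinophils, stood at 1254 CPM in glaucoma and 785 CPM in normal macrophages (0.67 [0.53, 0.82]). Thinned to 1000 UMIs, 58.4% [53.8, 62.9] of glaucoma and 39.3% [30.6, 48.6] of normal macrophages held a CCL24 UMI, and 0% of lymphocytes in either library. CCL2, which draws monocytes, stood at 961 and 1048 CPM (-0.13).

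The resident macrophage list had the lowest median of the 20 lists with at least 5 tested genes, at -0.62, and 5 of its 13 tested genes were lower and 1 higher. Lower were the growth factor gene IGF1 at 25.3 CPM in glaucoma and 73.1 CPM in normal (-1.53), TIMD4, the iron exporter gene SLC40A1 at 23.8 and 66.2 CPM (-1.48), the endocytic adaptor gene DAB2 at 230 and 519 CPM (-1.18 [-1.39, -0.96]), and RNASE1. RNASE1 was found in only 4 normal macrophages, of which 1 held 42.6% of its UMIs. The higher gene was FCGRT, the neonatal Fc receptor, at 71.9 and 26.1 CPM (1.46), which stood at 1.71 in the marker-free barcodes. STAB1, SELENOP, F13A1 and LYVE1 had ratios between -0.81 and -0.55, and MS4A7 one of 0.01. CD163 and MRC1, which belong to the same state, were used by the rule and are left out here. Among macrophages with at least 4 of the 7 marker genes the list median was -0.45.

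Of 11 monocyte genes tested, 2 were higher, S100A8 and S100A9, 1 was lower, FPR1, and the median was 0.37. S100A9 had 93 UMIs in 3 glaucoma macrophages and 0 in normal ones. Its log2 ratio thus has no point value, and the lower limit of its exact interval was 2.88. LYZ stood at 4649 CPM in glaucoma and 5134 CPM in normal (-0.14), and S100A6 at 1841 and 1252 CPM (0.56). Cells with UMIs of at least 2 of S100A8, S100A9, S100A12 and CCR2 were 3 of 464 thinned glaucoma macrophages (0.647%) and 0 of 122 normal ones [0, 2.98]. Among the other kept barcodes, thinned alike, the shares were 0.0822% and 0.147%. A difference between the macrophages of the 2 libraries was not detectable at this depth. Outside the macrophages, 8 glaucoma and 11 normal kept barcodes held at least 5 UMIs of S100A8 and S100A9 together, and the marker rule left these cells out.

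Of 4 dendritic cell genes tested, 0 were higher and 1 was lower, FLT3, the receptor for the growth factor of that lineage, at 27.4 CPM in glaucoma and 59.2 CPM in normal (-1.11). Its ratio was -0.99 without its top barcode in each library, short of 2-fold. None of 8 microglia genes differed 2-fold, with a median of -0.12: P2RY12, a nucleotide receptor, stood at 72.9 and 64.4 CPM and the fractalkine receptor gene CX3CR1 at 104 and 101 CPM. A P2RY12 UMI was found in 8.62% and 9.02% of thinned macrophages, against 0% of lymphocytes in both libraries.

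Lipid genes split. Of 12 tested, 2 were higher, LPL and SPP1, 3 were lower, ABCA1, GPNMB and MYLIP, and the median was -0.15. LPL, which frees fatty acids from lipoproteins, stood at 48.1 CPM in glaucoma and 12.2 CPM in normal macrophages, over 7 UMIs in normal. SPP1, the matrix protein osteopontin, stood at 533 and 185 CPM (1.53), with 29% and 69% of its UMIs in 1 barcode. APOE, the main lipid carrier of macrophages, stood at 12160 and 11377 CPM (0.10 [0.06, 0.14]).

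Of 12 iron and haem genes, 0 were higher and 1 was lower, SLC40A1, with a median of -0.30. HAMP, the hormone hepcidin that blocks the SLC40A1 exporter, was macrophage-enriched, at 813 CPM in glaucoma and 482 CPM in normal macrophages (0.75 [0.57, 0.94]), short of 2-fold. Its thinned share of cells was 38.4% [33.9, 43.0] in glaucoma and 23.8% [16.5, 32.3] in normal, against 0% of lymphocytes in both. The ferritin genes FTL (3713 and 2468 CPM) and FTH1 (9454 and 9923 CPM) had ratios of 0.59 and -0.07, and FTL stood at 0.63 in the marker-free barcodes.

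Of 22 growth factor and matrix genes, 3 were higher, AREG, SPP1 and TIMP1, 4 were lower, TIMP3, IGF1, TGFBI and MMP2, and the median was -0.06. TIMP1, an inhibitor of matrix proteases, stood at 408 CPM in glaucoma and 197 CPM in normal macrophages (1.05 [0.77, 1.35]). TIMP3, an inhibitor bound to matrix, stood at 79.2 and 468 CPM (-2.57), but at 1133 and 2085 CPM in the other kept barcodes, and its ratio was -0.23 with the tenth of macrophages richest in RNA of other cells left out. MMP2, a gelatinase, stood at 75.0 and 162 CPM (-1.11), and TGFB1 at 145 and 81.9 CPM (0.83 [0.38, 1.31]).

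Of 16 lineage factor and growth factor receptor genes, 0 were higher and 4 lower, RUNX1, ZEB2 (-1.12), MEF2A (-1.02) and the receptor gene TGFBR2 (-1.03), with a median of -0.47. SPI1, the master regulator PU.1 of myeloid cells, stood at 361 CPM in glaucoma and 254 CPM in normal macrophages (0.51 [0.25, 0.77]). MEF2A stood at 274 and 556 CPM, and TGFBR2 at 44.5 and 90.6 CPM. For ZEB2 and MEF2A the marker-free barcodes had ratios of -1.03 and -0.58, and for TGFBR2 one of -0.03.

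Of 16 pattern recognition and inflammasome genes, 1 was higher, PYCARD, and 2 were lower, CASP4 and CGAS, each at 22.8 CPM in glaucoma and 47.0 CPM in normal (-1.05), with a median of -0.19. TLR4, the receptor for lipopolysaccharide, stood at 34.7 and 66.2 CPM (-0.93 [-1.53, -0.32]), and caspase 1 (CASP1) at 253 and 259 CPM. None of 15 adhesion and migration genes differed 2-fold, and their median was 0.23. Of 3 macrophage-directed ligands tested, CCL2, TGFB1 and PROS1, 0 were called, with a median of -0.08.

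Of 12 interferon response genes, 1 was higher, IFI27, at 75.0 CPM in glaucoma and 24.4 CPM in normal macrophages (1.62), and it stood at 2.01 in the marker-free barcodes. The list median was -0.07, and ISG15 stood at 58.5 and 57.5 CPM (0.02). Of 13 hypoxia and glycolysis genes, 1 was higher, GAPDH, at 834 and 305 CPM (1.45 [1.23, 1.69]), 2 were lower, HIF1A, the oxygen-sensing factor, at 113 and 336 CPM (-1.58 [-1.86, -1.29]) and HK2, and the median was 0.11. GAPDH stood at 1.23 in the marker-free barcodes and HIF1A at -0.32.

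Of 15 immediate early genes, which tissue digestion also induces, 0 were higher and 4 lower: KLF6, EGR1 at 389 CPM in glaucoma and 855 CPM in normal (-1.14), BTG2 (-1.23) and MCL1 (-1.03), with a median of -0.24. Their summed level was 9286 CPM in glaucoma and 12291 CPM in normal macrophages. EGR1 stood at -1.79 in the marker-free barcodes. Of 12 heat shock genes, 2 were higher, CRYAB and DNAJB6, 3 were lower, HSPB1, DNAJB1 and BAG3, and the median was -0.06. CRYAB had 31.0% of its glaucoma and 40.9% of its normal UMIs in 1 barcode, and its ratio of 1.78 was 0.98, short of 2-fold, without the barcodes that Scrublet called doublets. DNAJB1 stood at 228 and 566 CPM (-1.31) and at -1.67 in the marker-free barcodes. How far the handling of the tissue took part in these differences was not tested.

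Of 10 cycling genes, 2 were higher, BIRC5 and CCNB2, on 5 and 6 UMIs in the normal library, and the median was 0.36. After thinning, a UMI of MKI67 or TOP2A was found in 4.09% [2.48, 6.32] of glaucoma and 4.10% [1.34, 9.31] of normal macrophages, against 5.59% [3.29, 8.80] and 4.26% [1.17, 10.5] of T and NK lymphocytes and 0.466% and 0.252% of all other kept barcodes. The intervals of the 2 libraries overlapped in the macrophages, and those of macrophages and lymphocytes overlapped in either library.

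**Figure D4:**
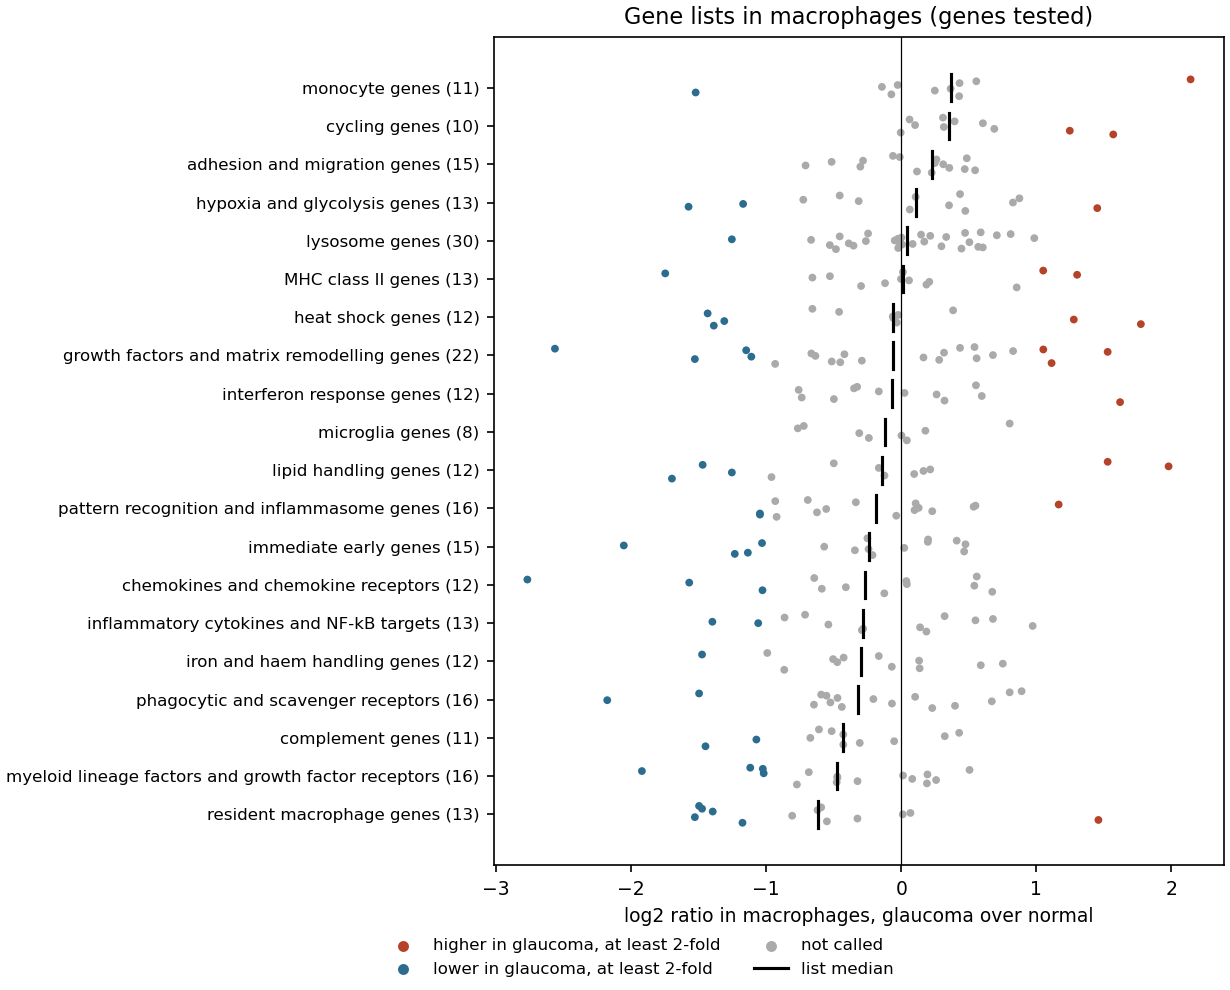
Log2 ratio in macrophages, glaucoma over normal, of each gene tested in the lists with at least 5 tested genes (number in brackets), with the list median as a black line. Red points were at least 2-fold higher in glaucoma, blue points at least 2-fold lower, and grey points neither. S100A9, with 0 UMIs in normal macrophages, is not drawn. The resident macrophage list had the lowest median, -0.62, and the monocyte list one of 0.37.

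RNA of other cell types was present in the macrophages at low levels and moved with some of these results. Over 76 marker genes of other types the median macrophage held 0.145% of its UMIs in glaucoma and 0.130% in normal, and the highest 9.55% and 5.40%. Meshwork genes summed to 1331 CPM in glaucoma and 2290 CPM in normal macrophages, against 14847 and 14307 CPM in other kept barcodes, and 72.7% and 95.7% of the MYOC UMIs lay in 10 barcodes. Fibroblast genes summed to 191 and 385 CPM, smooth muscle and pericyte genes to 1572 and 2029 CPM, and endothelial genes to 76.0 and 59.2 CPM. Their part in the differences of genes such as TIMP3 and CCL26 was not tested beyond the ratios given without the tenth richest in such RNA.

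RNA of blood and other cell types was summed in the same way. Erythroid genes summed to 490 CPM in glaucoma and 240 CPM in normal macrophages, neutrophil genes to 123 and 36.6 CPM, and B cell and plasma cell genes to 12.9 and 6.97 CPM. Mast cell genes summed to 1.03 and 10.4 CPM, melanocyte genes to 4.14 and 1.74 CPM, and epithelial genes to 3.10 and 3.48 CPM. Of 11 genes of T and NK cells, 6 were at 0 in glaucoma and 8 in normal macrophages, and IL7R made up 144 of the summed 148 CPM in glaucoma and 176 of 181 CPM in normal.

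Within each library, macrophages were next split by a UMI of LYVE1 or FOLR2, which marked 255 of 471 glaucoma macrophages (54.1%) and 86 of 125 normal ones (68.8%). This raw share depends on depth: thinned to 1000 UMIs it was 28.0% [24.0, 32.3] in glaucoma and 32.8% [24.6, 41.9] in normal, and the intervals overlapped. Thinned to 2000 UMIs, with 388 and 100 macrophages deep enough, it was 35.3% [30.6, 40.3] and 54.0% [43.7, 64.0], and the intervals did not overlap. Those of the raw shares, [49.5, 58.7] and [59.9, 76.8], did not overlap either. Lymphocytes held 0 such UMIs in 304 and 94 thinned cells, and other kept barcodes a share of 0.685% and 0.252%. The distance between the libraries thus depended on the depth chosen.

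Few genes went with this split. Of 4717 genes, 24 (0.509%) were at least 2-fold higher and 14 (0.297%) at least 2-fold lower in the LYVE1 or FOLR2 macrophages of both libraries, with intervals that exclude 0. PI16, a secreted peptidase inhibitor, had a log2 ratio over the other macrophages of 2.90 [2.27, 3.60] in glaucoma and 3.10 [1.15, 6.19] in normal. SLCO2B1, an organic anion transporter, had ratios of 1.86 in glaucoma and 1.60 in normal, and carboxypeptidase M ratios of 1.72 in glaucoma and 1.53 in normal. The endocytic adaptor gene DAB2 stood at 1.38 in glaucoma and 1.63 in normal, and the lysosomal protease gene CTSC at 1.57 in glaucoma and 1.40 in normal. The rest of the 12 highest were RARRES1, LPAR5, EGFL7, RAB3IL1, SLC7A8, DNASE2B and ULK2, several of them on few UMIs in the normal library. RARRES1 is also among the meshwork marker genes used here, and EGFL7 among the endothelial ones. The median share of other-type RNA was 0.158% in the LYVE1 or FOLR2 macrophages and 0.139% in the others in glaucoma, and 0.130% and 0.129% in normal. The part of such RNA in these 2 ratios was not tested.

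Among the genes lower in the LYVE1 or FOLR2 macrophages were the early response genes NR4A1, at -1.06 in glaucoma and -1.03 in normal, and ATF3, at -1.02 in glaucoma and -1.83 in normal. S100A10, a partner of annexin A2, stood at -1.16 in glaucoma and -1.19 in normal, and the division genes CDK1, CENPW and ASPM were lower too. S100A8 had 0 UMIs in the LYVE1 or FOLR2 macrophages of either library, and 125 CPM in the other glaucoma macrophages and 45.6 CPM in the other normal ones. These S100A8 values rest on 4 glaucoma macrophages and 1 normal macrophage. The rest of the 12 lowest were CSTA, ACTG2, ZNF426, COL8A1 and PLP2.

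Some list genes went with the split as well. Of 11 further resident macrophage genes tested, 2 were higher in both libraries, DAB2 and the selenium carrier gene SELENOP, and the list median was 1.29 in glaucoma and 0.81 in normal. The chemokine CCL24 and the scavenger receptor MARCO, named after their values were seen, were also higher, at 1.11 and 1.47 in glaucoma and 1.41 and 1.06 in normal, and IL1B was lower, at -1.01 in glaucoma and -2.58 in normal. Much of the IL1B of the normal macrophages lay in its top barcode, as given above, so the normal ratio rests largely on that barcode. The LYVE1 or FOLR2 macrophages had a median depth of 3591 UMIs in glaucoma and 4321.5 in normal, against 4180.5 and 4233 UMIs for the other macrophages.

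**Figure D5:**
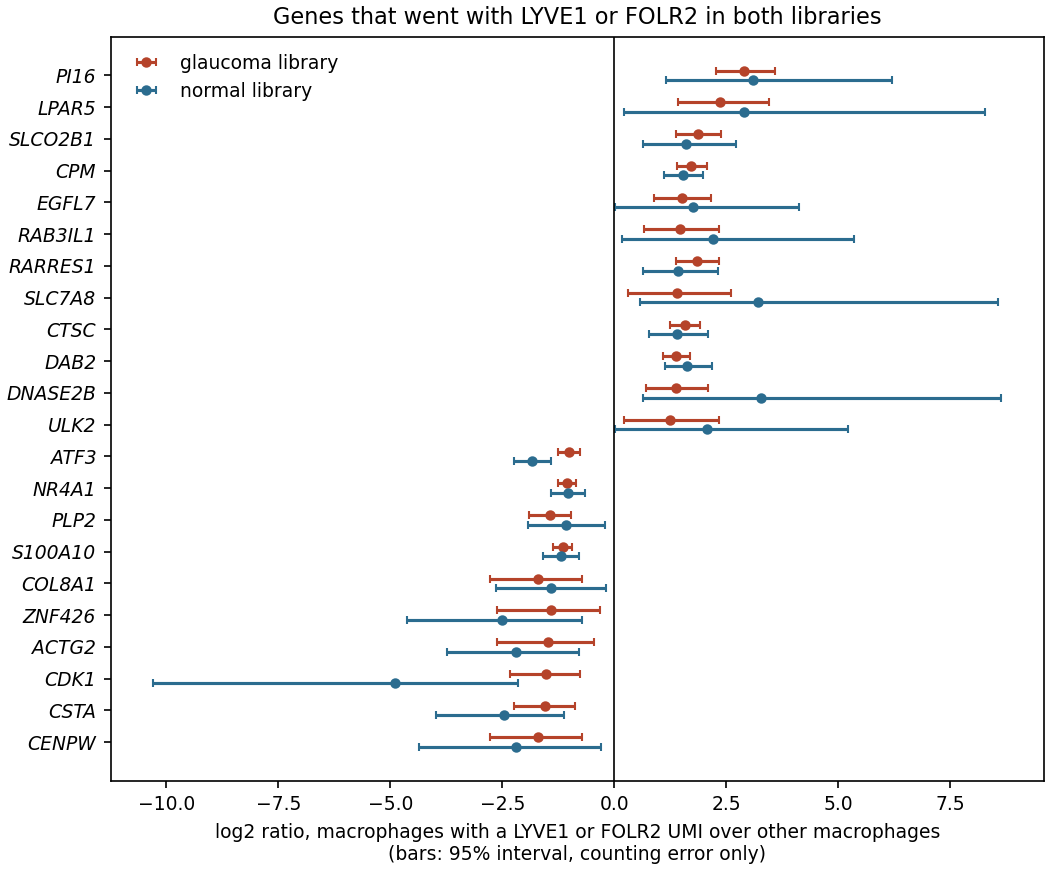
Log2 ratio of macrophages with a LYVE1 or FOLR2 UMI over the other macrophages of the same library, for the named genes that differed at least 2-fold in both libraries, in the glaucoma library (red) and the normal library (blue). Bars are 95% intervals for counting error, and S100A8 and ASPM, with 0 UMIs on one side in a library, are not drawn. PI16 stood at 2.90 in glaucoma and 3.10 in normal, and ATF3 at -1.02 and -1.83.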

How the data were processed

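Both droplet libraries of rhesus macaque trabecular meshwork were used, 1 labelled glaucoma and 1 labelled normal, as gene-by-barcode matrices of UMI counts deposited by the authors, neither normalized nor scaled. The matrices come from Cell Ranger 6.0.0 per the file headers, while the submitters' processing notes name Cell Ranger 4.0 and Seurat 3.0. The genome build, annotation and strand setting are not given in the sources used here, so overlapping and near-identical genes may share reads. Of 24037 features, 15580 carried a symbol in the files, 873 took one from a reference table of gene IDs, 109 would have taken one already in use, and 7475 stayed without a name.

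Macrophages were chosen by the marker rule, and the members and gene lists were chosen with earlier results of these data known. UMIs were summed over the macrophages of a library and divided by their total (CPM). With 1 library per group there was no test: a gene counted as different when it had at least 50 UMIs over both libraries, its ratio was at least 2-fold, and an exact conditional binomial interval of the ratio excluded 0. Shares have exact Clopper-Pearson intervals. PCR and capture errors, animals and dissections are not covered by either. Shares of cells with a UMI are given raw for description, and those compared between libraries also after each cell was thinned once to 1000 UMIs. Named genes were the 15 highest and 15 lowest named ratios among called genes with at least 100 UMIs, the 20 highest over other cells in both libraries, the 12 highest and 12 lowest of the LYVE1 or FOLR2 split, and list members; 1 named gene is not reported here. T and NK lymphocytes were kept barcodes with UMIs of at least 2 of CD3D, CD3E, CD3G, CD2, NKG7, GZMA, KLRB1, KLRD1 and CD247 and of fewer than 3 macrophage markers.

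Doublets were left in. Scrublet, as run in scanpy 1.11.5, called 296 of 8633 kept glaucoma barcodes (3.43%) and 45 of 5430 normal ones (0.829%), among them 20 and 2 macrophages. Alternatives changed the number of markers, the excluded genes, the cell filter, doublets, depth, the UMI minimum, the fold limit, the scaling, the weight of cells, other-cell RNA and the cells with monocyte genes. Allowing PECAM1, leaving out each gene's top barcode, and using marker-free barcodes as the other cells were added after seeing the data. Calculations used Python 3.11.15, numpy 2.4.6, scipy 1.17.1 and pandas 2.3.3, and were tested on simulated counts.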

Additional observations from a re-analysis of the deposited data

Results flagged for a closer look

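AREG, a growth factor gene of the EGF family, had a log2 ratio, glaucoma over normal, of 1.11 in macrophages and of -1.13 in the kept barcodes with none of the 7 marker genes. The second ratio rests on 12 UMIs in glaucoma and 21 in normal, with an interval of -2.29 to -0.04. In macrophages it had 102 UMIs in glaucoma and 14 in normal, and 57.1% of the normal UMIs lay in 1 barcode. The macrophage ratio was -0.42 with no gene excluded by the rule and -0.37 with PECAM1 allowed.

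LPL, lipoprotein lipase, likewise stood at 1.98 in macrophages and at -1.01 in the marker-free barcodes, over 93 UMIs in glaucoma macrophages and 7 in normal ones. CCL4L1 stood at -1.03 in macrophages and at 1.27 in the marker-free barcodes. In T and NK lymphocytes, which also make this chemokine, it stood at 1256 CPM in glaucoma and 1214 CPM in normal. These lymphocytes were 323 of 8633 kept barcodes in glaucoma and 97 of 5430 in normal. Their part in the marker-free ratio of CCL4L1 was not tested. RNASE1, a secreted ribonuclease abundant in endothelium, stood at -1.40 in macrophages and at 1.35 in the marker-free barcodes, and at 516 CPM in glaucoma lymphocytes and 26.1 CPM in normal ones.

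The histamine receptor gene HRH2 stood at 1.29 [0.23, 2.56] in macrophages, over 66 UMIs in glaucoma and 8 in normal, and at -2.45 [-3.55, -1.49] in the marker-free barcodes. CHST15, a sulfotransferase gene, stood at -1.07 in macrophages and 1.01 in the marker-free barcodes. S100A9, with 93 UMIs in 3 glaucoma macrophages and 0 in normal ones, stood at -1.02 in the marker-free barcodes.

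For each of these 7 genes the opposite direction is what drew attention, over 1 library per group, and the difference between the 2 kinds of cell was not tested.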

How the results depend on the processing

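No paired analysis was possible because each group is 1 library. The share of macrophages stayed higher in glaucoma under all 8 alternatives, with log2 ratios between 0.98 and 1.33. The counts of genes called depended on the limits. With each kept barcode thinned to 1000 UMIs and the marker rule applied again, 69 genes were higher and 57 lower. These were of 1227 tested, against 169 and 331 of 4719 without thinning. A minimum of 100 UMIs gave 81 higher and 154 lower, and one of 20 UMIs gave 586 lower. A limit of 1.5-fold gave 368 higher and 807 lower, and one of 3-fold 43 and 40. Higher genes thus outnumbered lower ones after thinning and at 3-fold only, and the cause of this turn was not tested. After thinning 21 of the 169 and 24 of the 331 were called. Genes that no longer reached the UMI minimum could not be called there. These counts therefore do not show how many of the differences were absent at equal depth. The share with LYVE1 or FOLR2 was 54.1% in glaucoma and 68.8% in normal when not thinned, and 35.3% and 54.0% at 2000 UMIs. At 1.5-fold, 54 genes were higher and 38 lower in the LYVE1 or FOLR2 macrophages.

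Over 62 genes and their alternatives, 829 values kept their call, 145 fell short of it and 7 changed sign, and for these the cause was not tested. A changed UMI minimum leaves a gene's ratio as it was, so part of this total was fixed in advance. At 20 UMIs all 62 kept their call, and at 100 UMIs 16 fell short because they were no longer tested. After thinning to 1000 UMIs, 9 kept their call, 46 fell short of it and 1 changed sign. Some of the 46 still had ratios beyond 2-fold, such as MERTK at -2.72 and RUNX1 at -2.08. Others did not, such as TIMP3 at -0.18 and CXCL1 at -0.40. How many of the 46 had too few UMIs left to be called was not counted. S100A8 was -0.24 with 2 markers required, AREG was -0.42 with no excluded gene and -0.37 with PECAM1 allowed (chosen after seeing the data), and TM6SF1 was 1.51 after thinning. With the tenth of macrophages richest in other-type RNA left out, CXCL2 was 3.32, CCL26 0.082 and KRT19 1.69. Of 20 list medians, 3 stayed above 0 and 6 below 0 throughout, and 11 changed sign. The resident list ran from -0.78 to -0.45.

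The normal library holds 125 macrophages, so genes under about 50 UMIs and states of a few cells could not be compared, and no value has a replicate.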

Other observations

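IL7R, the receptor for interleukin 7 and best known from lymphocytes, was macrophage-enriched in both libraries, at 144 CPM in glaucoma and 176 CPM in normal macrophages, a log2 ratio of -0.29 [-0.62, 0.06]. It was detected in 27.2% of glaucoma and 36.8% of normal macrophages, and after thinning in 10.1% [7.54, 13.2] and 15.6% [9.64, 23.2], against 76 of 304 and 35 of 94 T and NK lymphocytes.

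A small set of macrophages carried several division genes at once. At least 4 of 8 cycling genes, a number chosen after seeing the data, had UMIs in 18 of 471 glaucoma macrophages (3.82% [2.28, 5.97]) and 3 of 125 normal ones (2.40% [0.498, 6.85]), against 0.310% and 0% of T and NK lymphocytes and 0.257% and 0.0377% of all other kept barcodes. These cells were deep, with median UMI counts of 7336 in glaucoma and 11099 in normal. The counts are not thinned, and lymphocytes were shallower, at medians of 1383 and 1771 UMIs against 3927 and 4290 in macrophages. They therefore cannot rank the kinds of cell. At equal depth a UMI of MKI67 or TOP2A was found in 5.59% and 4.26% of lymphocytes, and in 4.09% and 4.10% of macrophages.

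The MHC class I gene MAMU-A stood at 1703 CPM in glaucoma and 1414 CPM in normal macrophages (0.27), and MAMU-B at 349 and 475 CPM (-0.45), with the same doubt about counting alleles as for the class II genes.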
